A study of Homo sapiens with 5 samples.

Results

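The 10 genes described here encode chaperones, degradation factors and transcription factors of the endoplasmic reticulum (ER) stress response: HSPA5, HERPUD1, DDIT3, XBP1, DNAJB9, DNAJC3, HSP90B1, SDF2L1, PDIA4 and HYOU1. They were taken as a list by gene symbol, and all 10 were found among the 18239 genes of the table, read by 39 of its 45259 probe sets that name a single gene. A gene's value was the median of its probe sets. The cells were GFP-SAS, a squamous cell carcinoma line of the tongue whose name marks it as carrying green fluorescent protein. They were treated for 24 h with 10 nM siAURKA-1 or 10 nM siAURKA-2, siRNAs against the mitotic kinase gene AURKA, with the non-targeting siRNA siNT, with 100 nM MLN8237 (alisertib, an inhibitor of the Aurora A kinase), or with the vehicle DMSO. Each of the 5 treatments was measured on 1 array, so no difference below has a replicate check, no test was possible, and precision is limited by the number of arrays. All values are log2 signals that the authors had centred per probe set, so a value says how an array stood relative to the other arrays and not how abundant an mRNA was. "Higher" and "lower" therefore describe single arrays, and a gene is counted as apart where it differed by at least 1.5-fold (0.58 on the log2 scale).

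The ER folds secreted and membrane proteins, and unfolded protein that builds up there is sensed by 3 membrane proteins, IRE1 (gene ERN1), PERK (gene EIF2AK3) and ATF6. IRE1 splices the XBP1 mRNA so that it encodes an active transcription factor, PERK slows translation while favouring that of ATF4, and ATF6 is cleaved to release a transcription factor. Targets include the lumenal chaperones, the machinery that returns misfolded proteins to the cytosol for degradation, and, through ATF4, the factor DDIT3 (also called CHOP), which is linked to cell death. A 3' expression array does not distinguish spliced from unspliced XBP1 mRNA.

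Several promoters of these genes carry known ER stress motifs, and 4 are shown because they hold such a motif and their genes are described at length below. DDIT3 and DNAJB9, described at equal length, held no exact match to either form of the ER stress element. DDIT3 holds ccaatgccggcgtgccact, which differs from CCAAT, any 9 bases, CCACG only in its last base. Near matches were not searched for. Each is the 300 bases from 250 before to 50 from the transcription start in RefSeq (GRCh38.p14), written along the gene's strand; all 10 genes matched that table. Capitals mark the ER stress element (CCAAT, any 9 bases, CCACG), its second form (ATTGG, any 1 base, CCACG), or the C/EBP-ATF element TTGCATCA, each searched on both strands.
HSPA5 (chr9:125241294-125241593, strand -): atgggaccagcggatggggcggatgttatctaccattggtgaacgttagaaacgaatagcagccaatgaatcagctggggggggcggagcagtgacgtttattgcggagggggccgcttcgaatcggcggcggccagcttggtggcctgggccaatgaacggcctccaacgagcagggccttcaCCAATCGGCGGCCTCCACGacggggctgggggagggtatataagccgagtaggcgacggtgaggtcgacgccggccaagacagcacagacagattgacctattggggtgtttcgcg
HERPUD1 (chr16:56931892-56932191, strand +): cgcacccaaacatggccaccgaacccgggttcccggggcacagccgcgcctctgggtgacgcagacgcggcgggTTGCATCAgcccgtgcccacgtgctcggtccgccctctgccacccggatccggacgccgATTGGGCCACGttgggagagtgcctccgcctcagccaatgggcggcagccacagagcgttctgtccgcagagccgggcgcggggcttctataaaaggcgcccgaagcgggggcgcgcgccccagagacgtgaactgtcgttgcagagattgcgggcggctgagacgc
XBP1 (chr22:28800520-28800819, strand -): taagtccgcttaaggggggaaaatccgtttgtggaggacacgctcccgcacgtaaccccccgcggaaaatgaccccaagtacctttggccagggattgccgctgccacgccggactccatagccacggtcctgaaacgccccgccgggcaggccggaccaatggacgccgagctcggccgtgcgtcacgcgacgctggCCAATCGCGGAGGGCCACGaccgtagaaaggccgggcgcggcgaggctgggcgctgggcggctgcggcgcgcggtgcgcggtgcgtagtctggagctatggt
HSP90B1 (chr12:103930160-103930459, strand +): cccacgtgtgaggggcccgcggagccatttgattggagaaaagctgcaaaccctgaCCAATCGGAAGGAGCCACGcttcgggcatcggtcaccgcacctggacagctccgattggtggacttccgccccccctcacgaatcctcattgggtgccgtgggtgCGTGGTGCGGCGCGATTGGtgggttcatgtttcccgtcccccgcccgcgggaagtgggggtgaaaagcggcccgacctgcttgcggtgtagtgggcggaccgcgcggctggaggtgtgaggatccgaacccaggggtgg
The HSPA5 match lies at -66 to -48 from the start, and that of XBP1 at -52 to -34. HSP90B1 holds a match at -194 to -176 and a second on the opposite strand at -89 to -71. In HERPUD1 the second form lies at -117 to -107 and the C/EBP-ATF element, a motif added after the promoters had been read, at -176 to -169.

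The ER stress element was found in 3 of the 10 members (HSPA5, XBP1 and HSP90B1) and in 0.0916% of all 27305 genes of the table, counting a gene if any of its promoters held it. Its second form was found in 3 others (HERPUD1, SDF2L1 and HYOU1) and in 0.0696% of genes. Over the 35116 promoters, those shares were 0.0769% and 0.0541%. SDF2L1 has CGTGGACCAAT, the motif on the opposite strand, at -188 to -178, and HYOU1 has CGTGGTCCAAT at -185 to -175 and again at -79 to -69. The UPR element TGACGTGG was found in HYOU1 alone among the members, overlapping the first of those matches, and in 0.927% of genes. TTGCATCA was found in 1 member, HERPUD1, and in 1.08% of genes. The short core CCACG, which is part of both ER stress elements, was found in 9 members and in 42.1% of genes. DDIT3 held no exact match to the motifs searched, and DNAJB9, DNAJC3 and PDIA4 matched the core only. These are exact matches of letters in a 300-base window and do not show binding. The ER stress motifs and the members were both taken as known parts of the ER stress response. The shares are therefore a description and not a test. Near matches were not counted.

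**Figure D1:**
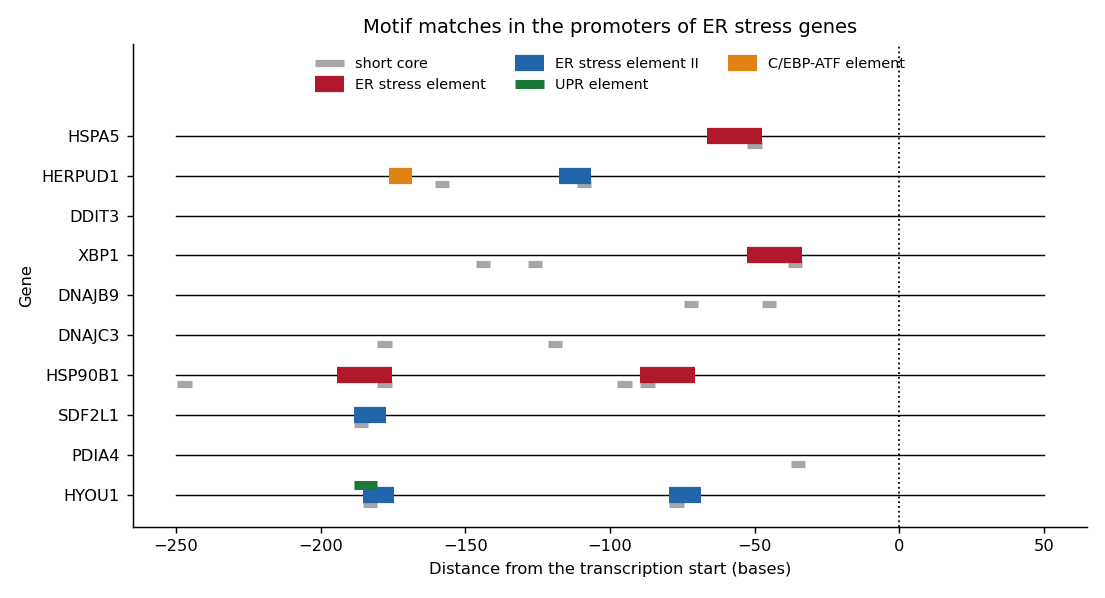
Motif matches in the promoters of the 10 genes (1 row per gene; the first listed promoter where there are several), by distance in bases from the transcription start (dotted line). The ER stress element (red) is in HSPA5, XBP1 and HSP90B1, its second form (blue) in HERPUD1, SDF2L1 and HYOU1, and the row of DDIT3 is empty.

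AURKA, read by 1 probe set, was lower than siNT with siAURKA-1 (-3.36) and siAURKA-2 (-2.64), and 0.49 above DMSO with MLN8237. Because each probe set is centred, whether squamous epithelial markers are expressed at all could not be checked. Of 17 listed fibroblast, leukocyte and endothelial markers, 16 were measured and 0 reached 1.5-fold in the 5 comparisons below (-0.16 to 0.13). Genes without signal would also lie near 0 on every array of a centred table, so this count cannot show whether such cells were present. Of 10 listed squamous markers 7 were measured, and all 7 lay below siNT on the siAURKA-2 array (median -0.39) and above it on the siAURKA-1 array (median 0.10). Of all genes, 42.3% lay below siNT with siAURKA-2 and 47.2% above it with siAURKA-1. KRT5, a basal keratin gene, gave -1.82 with siAURKA-2, and CDH1 (0.60), encoding E-cadherin, and KRT8 (0.59) passed 1.5-fold with siAURKA-1, though KRT8 was also lower with siNT than with DMSO (-0.70). The part of such shifts in the results below was not tested. In these bulk samples, fewer cells of a type and less RNA per cell cannot be told apart.

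siAURKA-2 gave the highest value of 5 of the 10 genes, siAURKA-1 of 4 and siNT of 1 (XBP1), while MLN8237 and DMSO gave the highest value of 0. HYOU1 is among the 4, on a value of 0.02 against 0 on every other array. How often each array was highest over all genes was not counted, so these counts have no background. The differences from siNT had an SD over all genes of 0.27 for siAURKA-2 and 0.32 for siAURKA-1. For MLN8237 over DMSO that SD was 0.13. The range over the 5 arrays had a median of 0.63 among the members, from 0.02 for HYOU1 to 1.37 for DNAJB9, against 0.22 over all genes. No low-signal filter could be applied, so the values and shares over all genes, here and below, include genes without signal. How far such genes lower that background could not be measured. On the siAURKA-2 array 3 members exceeded siNT by 1.5-fold or more and 0 were that far below it, against 1.96% of all genes higher and 3.11% lower. With siAURKA-1, 0 were higher and 1 lower, against 2.57% and 4.48% of all genes. With MLN8237 1 was higher than with DMSO and 0 lower, against 0.367% and 0.115% of all genes. Between the controls, siNT over DMSO, 1 was higher and 0 lower, against 1.53% and 0.554%. Between siAURKA-1 and siAURKA-2, 0 were higher and 2 lower, against 3.68% and 3.99% of all genes. No member reached 2-fold in these 5 comparisons, against 1.96%, 1.26%, 0.0658%, 0.296% and 2.16% of all genes for siAURKA-1 over siNT, siAURKA-2 over siNT, MLN8237 over DMSO, siNT over DMSO and siAURKA-1 over siAURKA-2.

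At a smaller size of 25% (0.32 on the log2 scale), siAURKA-1 had 3 members above siNT and 1 below, against 7.87% and 9.67% of all genes. siAURKA-2 had 4 above and 0 below, against 6.4% and 8.16%. MLN8237 had 1 above DMSO and 0 below, against 1.85% and 1.16%, and siNT had 2 above DMSO and 0 below, against 5.71% and 2.83%. Between the siRNAs, 2 were higher with siAURKA-1 and 5 lower, against 8.96% and 9.18%. With the controls exchanged and the size back at 1.5-fold, siAURKA-2 had 4 members above DMSO (HSPA5, HERPUD1, DDIT3 and DNAJB9) and 0 below, against 2.65% and 2.55% of all genes. siAURKA-1 had 1 above DMSO (DNAJB9) and 0 below, against 3.27% and 3.57%, and MLN8237 had 1 above siNT (DDIT3) and 1 below (DNAJB9), against 0.641% and 0.965%.

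The members' median difference was 0.04 for siAURKA-1, 0.25 for siAURKA-2 and -0.02 for MLN8237, while the median over all genes was 0 in each. Both siRNA comparisons use the same siNT array, so their values are given side by side.

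**Figure D2:**
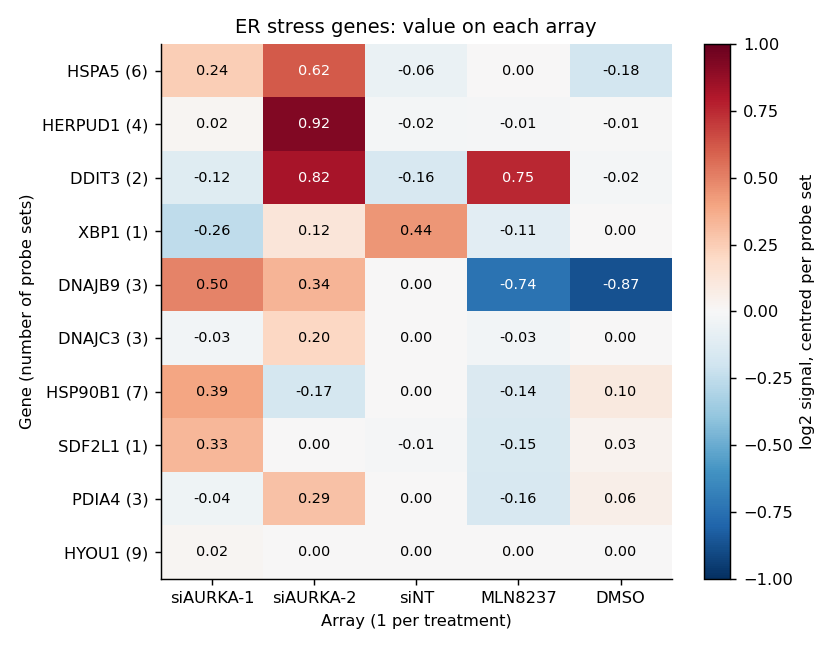
Value of each of the 10 genes (rows, number of probe sets in brackets) on each of the 5 arrays (columns), as log2 signal centred per probe set; red is above and blue below the gene's usual value. HERPUD1 is high on the siAURKA-2 array only (0.92), DDIT3 on the siAURKA-2 and MLN8237 arrays (0.82 and 0.75), and DNAJB9 is low on the MLN8237 and DMSO arrays (-0.74 and -0.87).

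HSPA5 (chr9:125234853-125241343; gene spans here and below are those of GRCh38.p14) encodes BiP, the HSP70 chaperone of the ER lumen that also holds the stress sensors inactive. Its values were 0.24 with siAURKA-1, 0.62 with siAURKA-2, -0.06 with siNT, 0 with MLN8237 and -0.18 with DMSO. Both siAURKA arrays thus lay above the other 3. Relative to siNT, HSPA5 was 1.60-fold higher with siAURKA-2 (0.68) and 1.24-fold higher with siAURKA-1 (0.31). All 6 probe sets were above siNT with either siRNA, from 0.37 to 0.87 with siAURKA-2 and from 0.11 to 0.64 with siAURKA-1. The siAURKA-2 difference ranked 245 from the top among 18239 genes. It was 0.56 after quantile normalization and 0.53 without the probe set whose ID ends in _x_at (a mark of probes that may bind other transcripts), both just under 1.5-fold. With MLN8237 the difference from DMSO was 0.18, but 1 of the 6 probe sets went the other way, and the probe sets ran from -0.45 to 0.39. Against DMSO, HSPA5 was higher by 0.43 with siAURKA-1 and by 0.80 with siAURKA-2.

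HERPUD1 (chr16:56932142-56944864), a membrane protein of ER-associated degradation and a stress-induced gene, was high on 1 array. Its values were 0.02 with siAURKA-1, 0.92 with siAURKA-2, -0.02 with siNT, -0.01 with MLN8237 and -0.01 with DMSO. The other 4 arrays lay within a few hundredths of each other. The siAURKA-2 array was 1.92-fold above siNT (0.94, rank 91 from the top) and 1.90-fold above DMSO (0.93). Of its 4 probe sets, 3 gave 0.89, 1.03 and 1.03 over siNT, and the one ending in _x_at gave 0.02. Set directly against siAURKA-2, siAURKA-1 was lower (-0.90), with 4 of 4 probe sets in that direction.

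DDIT3 (chr12:57516588-57520517), the transcription factor CHOP, was high on 2 arrays. Its values were -0.12 with siAURKA-1, 0.82 with siAURKA-2, -0.16 with siNT, 0.75 with MLN8237 and -0.02 with DMSO. The siAURKA-2 and MLN8237 arrays thus stood apart from the other 3. MLN8237 was 1.71-fold above DMSO (0.77; probe sets 0.68 and 0.86), rank 34 from the top among all genes in that comparison, and 0.91 above siNT. With siAURKA-2 the gene was 1.97-fold above siNT (0.98; probe sets 0.70 and 1.26), rank 79. With siAURKA-1 the difference was 0.04 and the 2 probe sets disagreed (-0.20 and 0.27). The high DDIT3 value with MLN8237 came without one for HERPUD1 (-0.0048 from DMSO) or ATF4 (-0.09, 1 probe set).

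**Figure D3:**
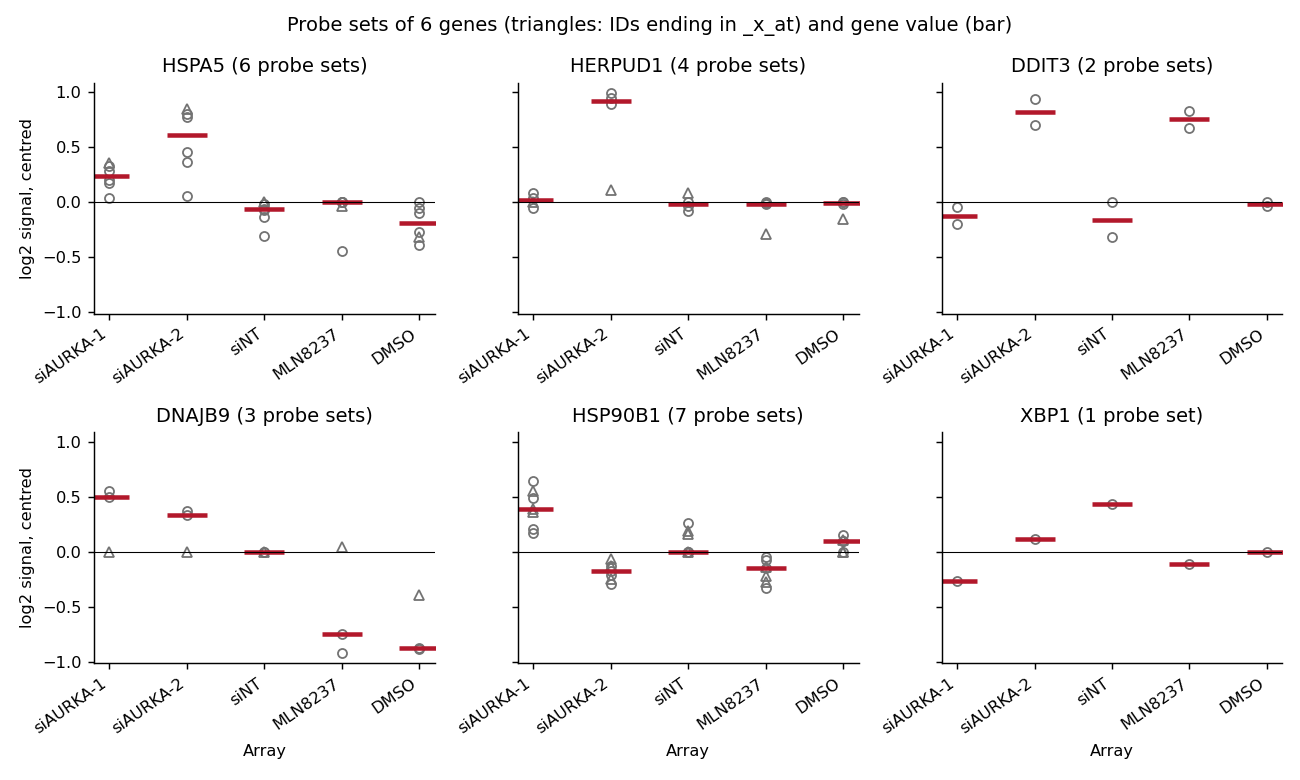
Log2 signal, centred per probe set, of each probe set (circles; triangles for IDs ending in _x_at) and the gene value (red bar) on the 5 arrays for 6 genes. The 2 DDIT3 probe sets are high on both the siAURKA-2 and MLN8237 arrays, 3 of 4 HERPUD1 probe sets on the siAURKA-2 array, and the 7 HSP90B1 probe sets lie higher with siAURKA-1 than with siAURKA-2.

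XBP1 (chr22:28794560-28800569), the transcription factor gene whose mRNA IRE1 splices, was read by 1 probe set. Its values were -0.26 with siAURKA-1, 0.12 with siAURKA-2, 0.44 with siNT, -0.11 with MLN8237 and 0 with DMSO, so the siNT array was the highest. The siAURKA-1 array lay 1.62-fold below siNT (-0.70), making XBP1 the only member at least 1.5-fold lower in that comparison. Its difference from DMSO was -0.26, under 1.5-fold, and siNT lay 0.44 above DMSO. With siAURKA-2 the direction depended on the control: -0.32 against siNT and 0.12 against DMSO.

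DNAJB9 (chr7:108569874-108574850), an ER cochaperone of HSPA5 that restrains IRE1, divided the siRNA arrays from the other arrays. It had 0.50 with siAURKA-1, 0.34 with siAURKA-2, 0 with siNT, -0.74 with MLN8237 and -0.87 with DMSO. The 3 siRNA arrays lay above both others without overlap. The siNT array was 1.83-fold above DMSO (0.87, rank 69 from the top), with 3 of 3 probe sets higher (0.39 to 0.88). Over siNT, siAURKA-1 added 0.50 and siAURKA-2 0.34, neither reaching 1.5-fold. Over DMSO they were 2.59-fold (1.37) and 2.32-fold (1.21) higher. In the main setting this made DNAJB9 the only member past 2-fold in any comparison. MLN8237 was 0.13 above DMSO but -0.74 from siNT, so its direction depended on the control. The probe set ending in _x_at gave 0 and 0.00 for the siRNAs over siNT, and 0.44 for MLN8237 over DMSO.

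HSP90B1 (chr12:103930410-103947926) encodes GRP94, the HSP90 chaperone of the ER lumen. It had 0.39 with siAURKA-1, -0.17 with siAURKA-2, 0 with siNT, -0.14 with MLN8237 and 0.10 with DMSO. The siRNAs thus lay on opposite sides of both controls. With siAURKA-1, 7 of 7 probe sets were above siNT (0.17 to 0.50, gene difference 0.39), and with siAURKA-2 7 of 7 were below it (-0.55 to -0.06, gene difference -0.17). Directly compared, siAURKA-1 was 1.48-fold above siAURKA-2 (0.56), with all 7 probe sets higher. MLN8237 was below DMSO in 7 of 7 probe sets (-0.33 to -0.15, gene difference -0.24). Each of these differences was under 1.5-fold, but taken as the median of the probe sets' own differences, that between the siRNAs was 0.61 and passed it.

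The other lumenal members differed less. PDIA4 (chr7:149003051-149028505), a protein disulfide isomerase, had -0.04 with siAURKA-1, 0.29 with siAURKA-2, 0 with siNT, -0.16 with MLN8237 and 0.06 with DMSO. All 3 of its probe sets were above siNT with siAURKA-2 (0.26 to 0.46) and below DMSO with MLN8237 (-0.28 to -0.21). DNAJC3 (chr13:95677139-95794988), a cochaperone of HSPA5 first described as an inhibitor of eIF2alpha kinases, had -0.03 with siAURKA-1, 0.20 with siAURKA-2, 0 with siNT, -0.03 with MLN8237 and 0 with DMSO. Its 3 probe sets were above siNT with siAURKA-2 by 0.15, 0.19 and 0.51.

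SDF2L1 (chr22:21642302-21644299), a partner of ER-resident HSP40 cochaperones, was read by 1 probe set and had 0.33 with siAURKA-1, 0 with siAURKA-2, -0.01 with siNT, -0.15 with MLN8237 and 0.03 with DMSO. It was 1.27-fold higher with siAURKA-1 than with siNT (0.35). HYOU1 (chr11:119044188-119057205), the large HSP70-like chaperone and exchange factor of HSPA5, had 0.02 with siAURKA-1 and 0 on the other 4 arrays. This flat median covered 9 probe sets that disagreed, from -0.18 to 0.55 for siAURKA-1 over siNT.

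Agreement among probe sets differed by comparison. Of the 8 members with several probe sets, the probe sets all shared the direction of the gene value in 7 with siAURKA-2 against siNT, in 3 with MLN8237 against DMSO, in 2 with siAURKA-1 against siNT, and in 1 with siNT against DMSO. Over all 39 probe sets the numbers sharing the direction were 32, 28, 29 and 18 in the same order. These include HYOU1 probe sets at exactly 0 where its gene difference was also 0. There were 2 with siAURKA-2 over siNT, 2 with MLN8237 over DMSO and 1 with siNT over DMSO. In those comparisons HYOU1 had no direction to share, nor had DNAJC3 for siNT over DMSO, and both were counted as not sharing among the 8. Probe sets of a gene read the same RNA on the same array and are not replicates.

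**Figure D4:**
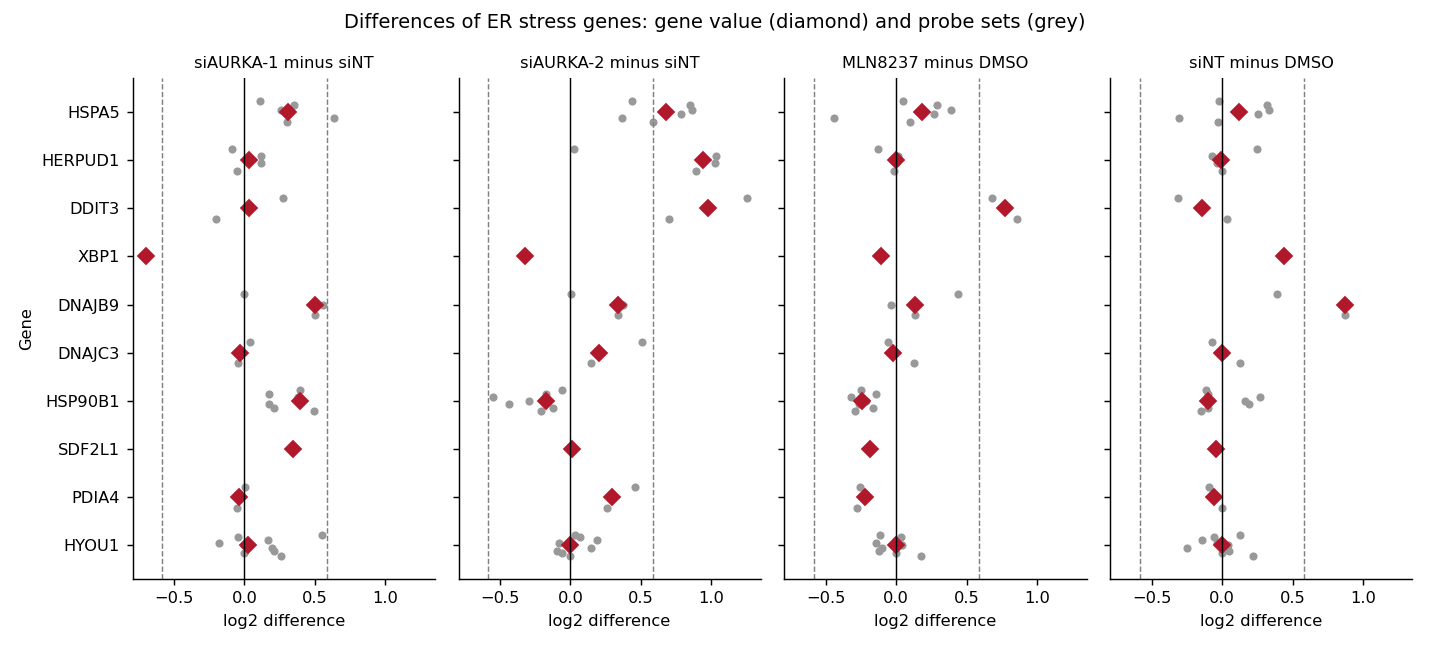
Log2 differences of the 10 genes in 4 comparisons (panels): red diamonds are gene values, grey dots single probe sets, dashed lines 1.5-fold. HSPA5, HERPUD1 and DDIT3 lie past 1.5-fold with siAURKA-2, XBP1 with siAURKA-1, DDIT3 with MLN8237 and DNAJB9 between siNT and DMSO.

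Set against each other, the siRNAs differed at 1.5-fold for 2 members, HERPUD1 and DDIT3 (-0.94), both lower on the siAURKA-1 array. The members' median was -0.28, with 4 above 0 and 6 below, and HSPA5 (-0.37), XBP1 (-0.38) and PDIA4 (-0.33) were also lower, while SDF2L1 (0.33) was higher. Of all genes, 45.5% lay above 0 and 44.5% below in that comparison, so the split of the members by sign was near the background.

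Around these members, 60 other measured genes of ER protein folding and quality control mostly differed little. With siAURKA-2, 1 was at least 1.5-fold higher than with siNT and 3 lower, with siAURKA-1 1 was higher and 0 lower, and with MLN8237 0 differed from DMSO. Over all genes the shares were 1.96% higher and 3.11% lower with siAURKA-2, 2.57% and 4.48% with siAURKA-1, and 0.367% and 0.115% with MLN8237, so that 1 of 60 higher and 3 of 60 lower lay near the background. Their medians were 0.04 with siAURKA-2, 0.12 with siAURKA-1 and -0.03 with MLN8237. Over DMSO, siAURKA-1 had 4 of the 60 higher and 0 lower (median 0.16), against 3.27% and 3.57% of all genes. With siAURKA-2, 1 was higher than with DMSO and 2 lower (median 0.07), against 2.65% and 2.55%. None of the 6 stress sensors and their activating proteases reached 1.5-fold. EIF2AK3, encoding PERK, came closest among the 3 treatments, with -0.54 for siAURKA-2 over siNT.

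Among 14 other ER chaperones and cochaperones, CNPY2 (-1.10) and the prolyl isomerase gene FKBP14 (-0.92) were lower with siAURKA-2 than with siNT, with 3 of 3 probe sets each. FKBP14 was 0.40 above siNT with siAURKA-1. DNAJB11, a further cochaperone of HSPA5, gave 0.58 for siAURKA-1 over siNT and 0.43 for siAURKA-2, under 1.5-fold in both. Of 9 genes of disulfide formation, ERP44, which retains oxidases in the early secretory pathway, was higher with siAURKA-1 (0.71, 4 of 4 probe sets) and gave 0.39 with siAURKA-2. PDIA5 was higher with siNT than with DMSO (0.76), though in 1 probe set.

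In the 16 measured genes of ER-associated degradation, the pathway of HERPUD1, 0 reached 1.5-fold with any treatment. The medians were 0.11 for siAURKA-1, 0.00 for siAURKA-2 and -0.01 for MLN8237. SEL1L, which scaffolds the degradation ligase, had a difference of 0.45 for siAURKA-1 and 0 for siAURKA-2. EDEM2, which trims mannose from misfolded glycoproteins, had 0.28 for siAURKA-1 and 0.51 for siAURKA-2. Of 15 translocon and signal peptidase genes, SRPRB, a subunit of the signal recognition particle receptor, was higher with siAURKA-2 (0.82, but 0.26 over DMSO) and SSR1, of the translocon-associated complex, lower (-0.68, 8 of 8 probe sets).

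The PERK and ATF4 effectors form the branch to which DDIT3 belongs. With siAURKA-1, 6 of the 14 measured were at least 1.5-fold below siNT and 0 above, against 4.48% and 2.57% of all genes, with a median of -0.47. The other 8 were within 1.5-fold, among them PPP1R15A (-0.05), a phosphatase subunit that reverses PERK's effect on translation. The 6 included the translation repressor gene EIF4EBP1 (-1.35), the secreted glycoprotein gene STC2 (-1.23), ATF4 (-1.22) and CEBPG (-0.87), a bZIP partner of ATF4. STC2 was -0.51 from DMSO, and siNT lay 0.73 above DMSO for it. Against DMSO the list's median was -0.18, with 3 genes at least 1.5-fold lower and 0 higher, against 3.57% and 3.27% of all genes. With siAURKA-2 the median over siNT was -0.07, with SESN2, a stress-induced regulator of mTORC1 signalling, higher (0.61) and EIF4EBP1 lower (-0.63). Set against DMSO instead, the siAURKA-2 median was 0.07, with 2 genes higher (SESN2 1.19, DDIT4 0.68) and 1 lower (EIF4EBP1 -0.66). The shares of all genes there were 2.65% higher and 2.55% lower. In 11 of the 14 genes siNT lay above DMSO and in 1 below (median 0.20), against 47.6% and 39.6% of all genes. ATF4, read by 1 probe set, gave -0.43 for siAURKA-2 over siNT but -0.15 over DMSO. On the same array DDIT3 gave 0.98 over siNT and 0.84 over DMSO. With MLN8237 0 of 14 reached 1.5-fold from DMSO (median 0.01), and TRIB3, a target of DDIT3, gave 0.05. From siNT the MLN8237 median was -0.19, with 1 gene lower (DDIT4, -1.37) and 0 higher, against 0.965% and 0.641% of all genes. TRIB3 gave -0.29 there.

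For comparison, 10 genes of serine and asparagine synthesis and amino acid uptake, which ATF4 also regulates, showed a median of -0.77 on the siAURKA-1 array, of -0.16 on the siAURKA-2 array and of -0.28 on the MLN8237 array, each against its control, with 6, 1 and 1 at least 1.5-fold lower and 0 higher. The 15 measured cytosolic heat shock chaperones had medians of -0.13, -0.27 and -0.09 in the same order, with 2, 0 and 0 at least 1.5-fold lower. Over all genes, 4.48%, 3.11% and 0.115% were that much lower in these 3 comparisons. The 10 ER stress genes had medians of 0.04, 0.25 and -0.02. Over DMSO, the heat shock median was -0.31 with siAURKA-1 (4 lower, 0 higher) and -0.37 with siAURKA-2 (3 lower, 1 higher). The shares of all genes were 3.57% lower and 3.27% higher with siAURKA-1, and 2.55% and 2.65% with siAURKA-2. Medians over DMSO with siAURKA-1 and siAURKA-2 were -0.87 and -0.40 for the serine and asparagine list, and 0.02 and 0.22 for the ER stress genes. The lists were chosen with earlier results known and no test of the difference was possible, so nothing is called particular to any of them.

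**Figure D5:**
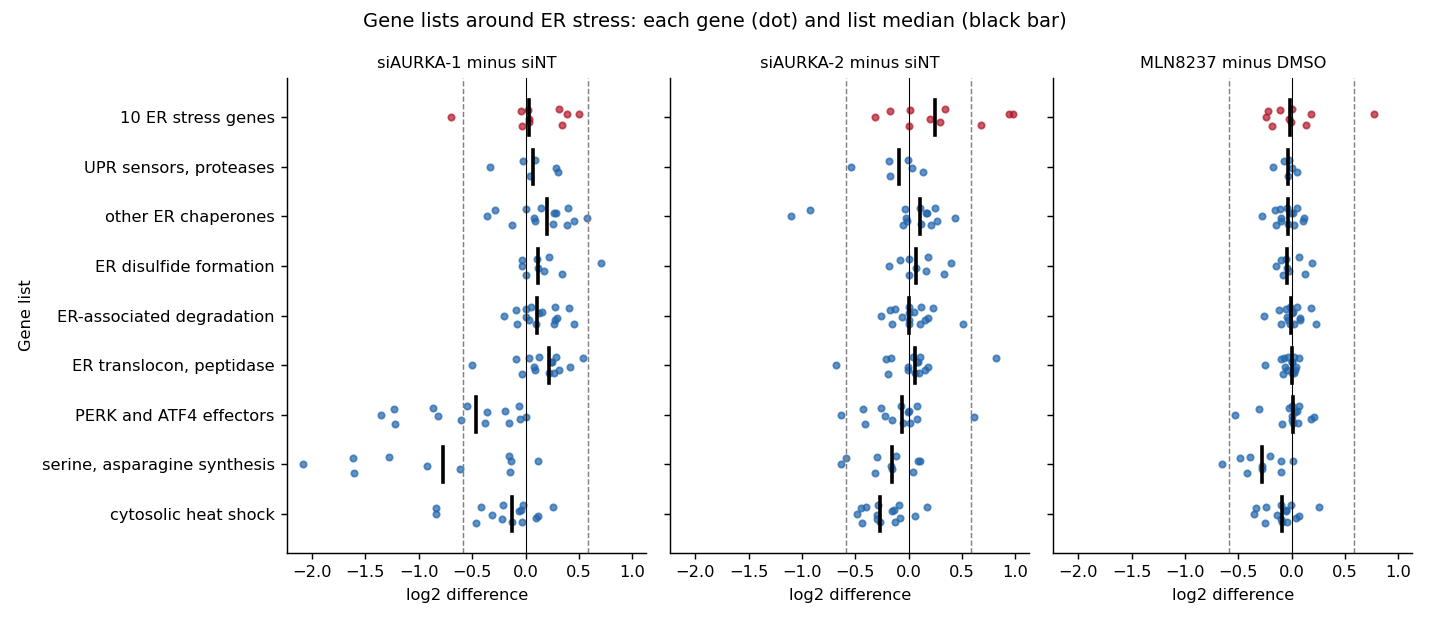
Log2 differences in 3 comparisons (panels) for 9 gene lists (rows): each dot is a gene, black bars are list medians, dashed lines 1.5-fold. The 10 ER stress genes (red) have their median at 0.25 with siAURKA-2, and the PERK and ATF4 effectors at -0.47 with siAURKA-1.

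Likeness to HSPA5 was measured as Pearson's r over the 5 arrays, a description of few points that share normalization. Among 891 genes with a range of at least 1, members included, the 6 non-members with the highest r were GRAMD2B (0.995), NFKBIA (0.985), CDKN2B (0.982), FBXO8 (0.973), SERINC3 (0.972) and OSCP1 (0.966). NFKBIA encodes an inhibitor of NF-kB and CDKN2B the cyclin-dependent kinase inhibitor p15. Among the members, r with HSPA5 was 0.88 for HERPUD1, 0.80 for DNAJC3, 0.74 for DNAJB9, 0.66 for PDIA4 and 0.54 for DDIT3, and -0.12 for XBP1 and -0.17 for HSP90B1.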

How the data were processed

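Total RNA of 5 treatments was labelled with Affymetrix's GeneAtlas 3' IVT Express kit, per the labels' protocols, with 1 array each. The deposited values were taken as log2 signal; RMA is named in the submitters' processing notes, but the sources used here give neither software, version nor log base. The median over the arrays was 0 in all 49386 probe sets, so the deposited table is centred per probe set and holds no levels: a low-signal filter and the choice of the brightest probe set, both planned, could not be applied. With centred RMA values, 52.1% of probe sets held 0 on 2 or more arrays.

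Probe sets naming 1 gene (45259; 1327 named several) were named through the platform annotation and current RefSeq symbols and collapsed to 18239 genes by the median, with pandas 2.3.3 under Python 3.11.15. Differences were siAURKA-1 and siAURKA-2 over siNT, MLN8237 over DMSO, siNT over DMSO, and siAURKA-1 over siAURKA-2. No test could be run. The collapse step was tested on simulated data. The members and lists were chosen with earlier results of these data known; of 131 list entries besides the members, 8 had no probe set of their own. Named genes were all members, AURKA, up to 4 genes of largest difference per list and comparison among those at least 1.5-fold apart, and 6 genes most like HSPA5; EIF2AK3, DNAJB11, SEL1L, EDEM2, TRIB3, PPP1R15A and values set beside these were named after their values were seen. Alternatives were other folds, controls, scalings and ways to combine probe sets. Protein sequences were not used here.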

Additional observations from a re-analysis of the deposited data

Results flagged for a closer look

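HSP90B1 and PDIA4 are given here because every probe set of the gene lay on one side of its control under one treatment and on the other side under another; with 1 array per treatment these differences were not tested. HSP90B1 lay 0.56 higher with siAURKA-1 than with siAURKA-2 when each was set against siNT (0.39 and -0.17, 7 probe sets). Its difference with siAURKA-1 from siNT also exceeded that with MLN8237 from DMSO (-0.24) by 0.63. PDIA4 differed by 0.52 between siAURKA-2 against siNT (0.29) and MLN8237 against DMSO (-0.22), over 3 probe sets.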

How the results depend on the processing

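With 1 array per group, no array could be left out. No paired analysis was possible because each group holds 1 array. Counts of members at least 1.5-fold apart changed as follows. At 2-fold they were 0 in the 5 comparisons, while against DMSO DNAJB9 passed 2-fold with siAURKA-1 and siAURKA-2. At the 25% size, 3 were higher with siAURKA-1 than with siNT, 2 with siNT than with DMSO, and between siAURKA-1 and siAURKA-2 2 were higher and 5 lower. The 3 higher with siAURKA-2 became 2 under quantile normalization and without _x_at probe sets, and 4 against DMSO or the mean of both controls. Against DMSO, 2.65% of all genes were that much higher with siAURKA-2. Shares of all genes were not computed for quantile normalization, other choices of probe sets or the mean of both controls. Counts under those settings have no background beside them. Against DMSO, or against the mean of both controls, siAURKA-1 gave 1 higher (DNAJB9) and 0 lower, and against siNT MLN8237 gave 1 lower (DNAJB9). Probe sets ending in _at without a letter exist for 4 members and left 1 higher with siAURKA-2 and 0 in the other comparisons. With the median of the probe sets' differences, 1 member (HSP90B1, 0.61) was higher with siAURKA-1 than with siAURKA-2; this choice and leaving out _x_at probe sets were added after seeing the data. The members' median stayed between 0.19 and 0.30 with siAURKA-2, between 0.02 and 0.17 with siAURKA-1 and between -0.12 and -0.01 with MLN8237 under the alternatives run. Quantile normalization moved DDIT3 with MLN8237 to 1.15 and DNAJB9 with siNT over DMSO to 1.10, both past 2-fold; the cause was not tested. The brightest probe set and a low-signal filter were planned but not run, since the values hold no levels. Of 330 member values under alternatives, 23 moved by more than the SD over probe sets of the gene (pooled over genes where there was 1), and 0 of those past 1.5-fold in the main setting changed sign. The 330 include 50 from centring each array on its median over all genes. That median was already 0 on every array, so these could not move. Nor could the mean of the probe sets move genes with 1 or 2 probe sets. DNAJB9 with MLN8237, under 1.5-fold against DMSO (0.13), was -0.74 against siNT.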
